A study of Mus musculus with 12 samples.

Results

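The RNA of 9 genes that bear on how doxorubicin acts in a cell is described in whole mammary tumors. The genes, taken by symbol, are the topoisomerase II targets Top2a and Top2b, the ABC efflux pumps Abcb1a, Abcb1b, Abcc1 and Abcg2, and the reductases Cbr1, Cbr3 and Nqo1. They make up 9 of the 21960 genes listed for each tumor, and all 9 were found. RNA was sequenced from 12 tumors of female C57BL/6 mice that express the polyoma middle T oncoprotein (PyMT) from the mouse mammary tumor virus promoter, which drives spontaneous tumors of the mammary epithelium. The 4 groups, of 3 tumors each, are called IgG1 and DOX/IgG1 (control antibody), anti-PD-1 and DOX/anti-PD-1 (blocking antibody). Mice without doxorubicin (DOX) were treated from a tumor diameter of 0.6 cm with the PD-1 blocking antibody 4H2 or an IgG1 isotype control, at 20 mg/kg first and 10 mg/kg afterwards. Mice with doxorubicin were treated from a diameter of 1 cm with 5 mg/kg doxorubicin weekly for 5 weeks, each dose followed by 10 mg/kg of either antibody. For the groups without doxorubicin the sample labels also give 5 weeks, whereas the treatment notes describe a shorter course of antibody alone. Any difference between tumors with and without doxorubicin is therefore also a difference in starting diameter, first antibody dose and schedule, and these cannot be told apart. Ages are not given in the sources used here, and no label ties a replicate number to a mouse, cage or day, so the p-values measure the spread between these 12 samples.

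Topoisomerase II cuts both strands of DNA to let another helix pass, and doxorubicin traps the enzyme on the cut ends. The alpha form is made mainly in dividing cells and the beta form in dividing and resting cells alike. ABC pumps use ATP to move doxorubicin out of the cell, and P-glycoprotein, which one human gene encodes, has a pair of genes in the mouse, Abcb1a and Abcb1b. Carbonyl reductases turn doxorubicin into the alcohol doxorubicinol, and quinone reductases such as Nqo1 act on quinones, a class to which the anthracyclines belong.

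Levels are given as TPM, a share of all transcripts corrected for transcript length. TPM keep no read counts, and sequencing depth is unknown. Per tumor, the listed genes added up to 609418 TPM at the least and 725506 TPM at the most. DOX/IgG1 replicate 1 stood apart from the other tumors. It had 8104 listed genes at 0, against 6534 to 7730 in the others, and its correlation with the other tumors of its group across the tested genes was 0.863 and 0.862, where genes are not independent replicates. Among the other tumors the lowest such value was 0.878, leaving out the pairs with this tumor. The header of its column of values also carries the word test, and the headers of the DOX/anti-PD-1 group carry another number than those of the remaining groups. What either stands for is not given in the sources used here, and for DOX/anti-PD-1 it cannot be told apart from the treatment. DOX/IgG1 replicate 1 was also the only tumor in which any of the 9 genes was listed at 0, which held for Abcb1a and Cbr3. Such a 0 can be an estimate that failed. All 6 luminal epithelial markers were above 0 in every tumor, with Epcam as the most abundant at a mean of 729 TPM.

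Over the 12 tumors Top2a had the highest mean level at 113 TPM, above 92.2% of the 14735 genes tested, and Top2b followed at 109 TPM. Their medians were both 119 TPM. In DOX/IgG1 tumors the mean of Top2b (125 TPM) exceeded that of Top2a (75.3 TPM), whereas in the other groups Top2a had the higher mean. Abcg2 (39.6 TPM), Nqo1 (36.5 TPM), Cbr1 (25.9 TPM) and Abcc1 (22.4 TPM) came next. Both P-glycoprotein genes were low, Abcb1a at 6.12 TPM and Abcb1b at 4.38 TPM, and Cbr3 was lowest at 3.48 TPM, above 18.1% of the genes tested. The most even between tumors was Cbr1, for which the highest level was 1.91 times the lowest, whereas Abcg2 spanned 8.33 times. Within groups, the SD on the log2 scale was 0.27 for Cbr1 and 1.30 for Abcb1a, and without DOX/IgG1 replicate 1 it was 0.22 and 0.68.

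**Figure D1:**
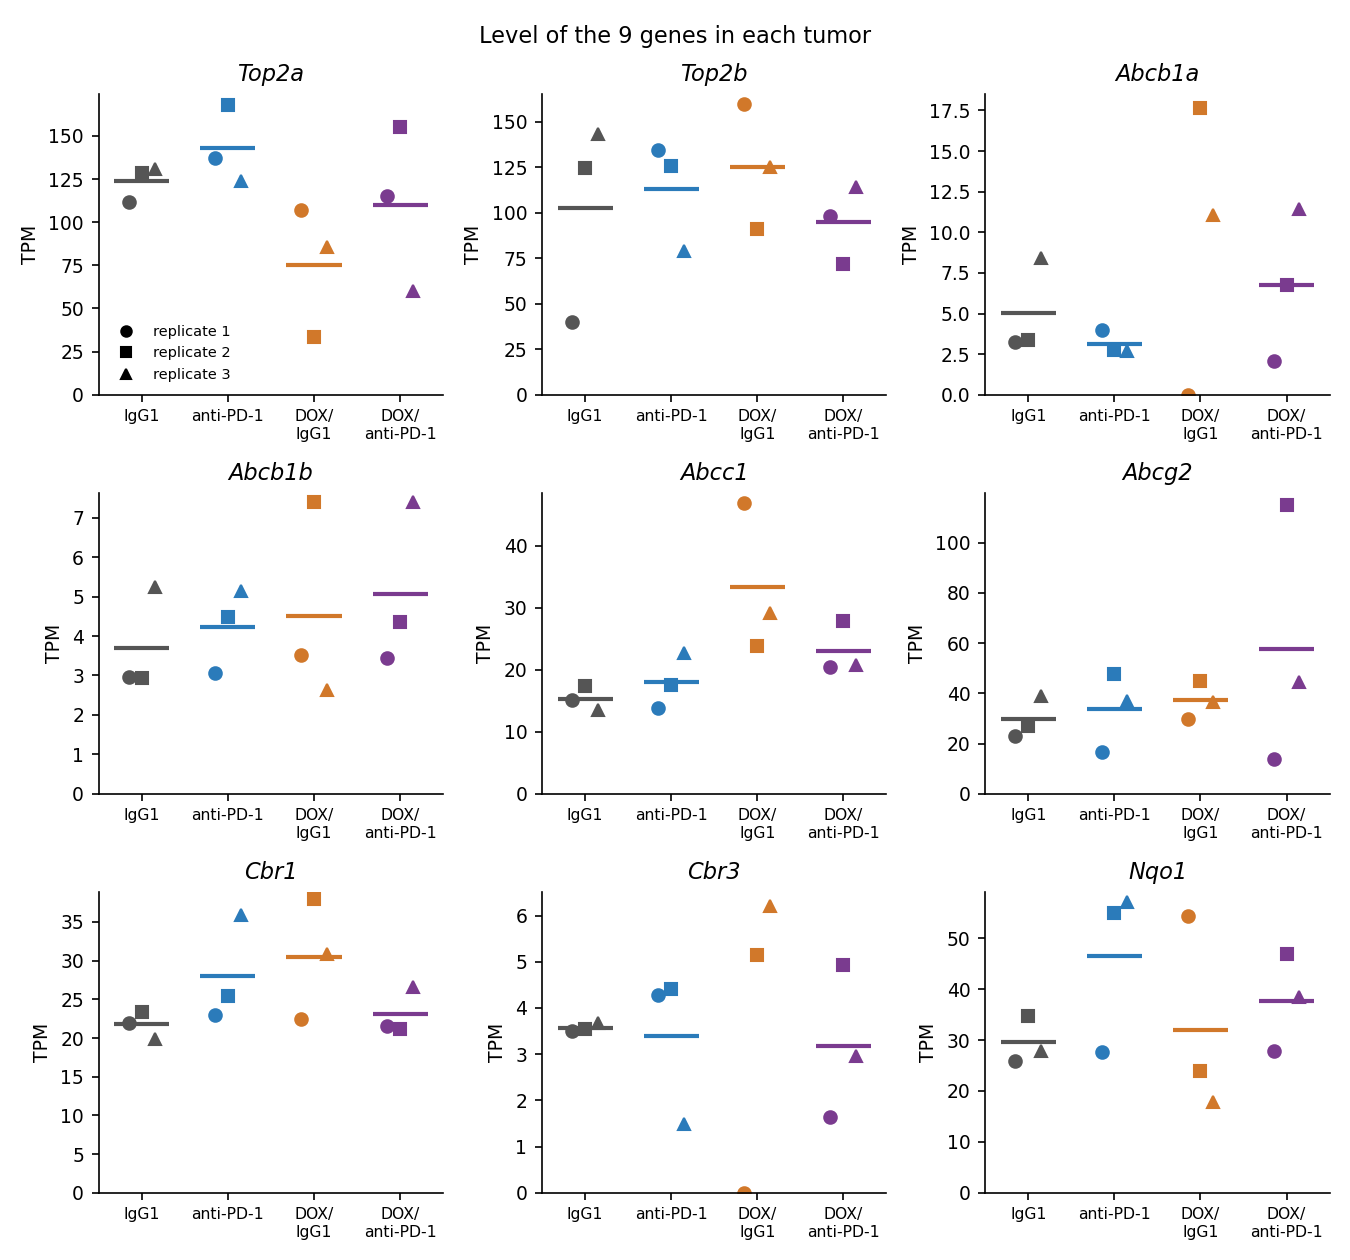
TPM of each of the 9 genes (vertical axes, from 0) in the 3 tumors of each group, with marker shapes for replicates and a horizontal bar for the group mean, left out where a tumor was listed at 0. Top2a reached 107 TPM at most in DOX/IgG1 tumors and at least 112 TPM under IgG1, Abcc1 reached at least 23.9 TPM under DOX/IgG1 and 17.3 TPM at most in IgG1 tumors, and the remaining genes overlapped between these groups.

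Doxorubicin was compared with its absence in 3 ways, within each antibody (6 tumors) and over both antibodies together (12 tumors, with antibody as a covariate). Differences were tested with limma on log2(TPM + 1), and genes were called at an adjusted p below 0.1 with an absolute log2 fold change above 1. In no comparison was any of the 9 genes called. For DOX/IgG1 against IgG1, 0 of 9 passed both limits, against 0.036% of all 13874 genes tested, and 1 of 9 had an unadjusted limma p below 0.05, against 7.73%. Without DOX/IgG1 replicate 1 the last count was 3 of 9, against 1789 of 13664 genes, and it was 2 of 9 under either other scaling, against 1117 of 13835 genes (median of ratios) and 1132 of 13857 (equal sums). For DOX/anti-PD-1 against anti-PD-1, 0 of 9 passed, against 0% of 13736 genes, and 0 of 9 had an unadjusted p below 0.05, against 8.63%. Over both antibodies, 0 of 9 passed against 0.0204% of 14735 genes, and Top2a and Abcc1, 2 of 9, had an unadjusted p below 0.05, against 12% of all genes, and 3 of 9 without DOX/IgG1 replicate 1, against 2163 of 14626 genes. The groups did not overlap for 2 of 9 genes (Top2a and Abcc1) for DOX/IgG1 against IgG1, compared with 14% of all genes. For DOX/anti-PD-1 against anti-PD-1 this held for 0 of 9, against 14.9%. With 9 genes, counts as small as these are not a result about the 9. The median log2 difference of the 9 genes with doxorubicin over both antibodies was 0.10, beside 0.12 for all tested genes. Scaling the tumors by the median of ratios moved the median of all tested genes to 0.01, a shift of -0.11, and that of the 9 genes to -0.020.

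Top2a (ENSMUSG00000020914, chromosome 11, 98992943 to 99024189, GRCm38, minus strand) encodes the topoisomerase that doxorubicin traps in dividing cells. It stood at 112, 128 and 131 TPM under IgG1 and at 107, 33.5 and 85.5 TPM under DOX/IgG1. In anti-PD-1 tumors it stood at 137, 168 and 124 TPM, and in DOX/anti-PD-1 tumors at 115, 155 and 60.1 TPM. All 3 DOX/IgG1 tumors lay below all 3 IgG1 tumors, whereas DOX/anti-PD-1 tumors overlapped with anti-PD-1 tumors through replicate 2. By group mean the order was anti-PD-1 (143 ± 22.7 TPM, SD, n = 3), IgG1 (124 ± 10.4), DOX/anti-PD-1 (110 ± 47.7) and DOX/IgG1 (75.3 ± 37.7), and each pair of neighbors in this order overlapped. The log2 fold change was -0.86 (standard error 0.40, limma adjusted p = 0.658) for DOX/IgG1 against IgG1 and -0.46 (standard error 0.34, limma adjusted p = 0.714) for DOX/anti-PD-1 against anti-PD-1. Over both antibodies it was -0.66, with a 95% interval of -1.25 to -0.07 and a limma adjusted p of 0.356. The exact permutation test of this pooled difference, two-sided and not adjusted for the 9 genes, gave p = 0.045, where 400 arrangements allow 0.005 at the lowest, and p = 0.05 on TPM. Within 1 antibody, 20 arrangements allow no exact p below 0.1. A single tumor, DOX/IgG1 replicate 2 with 33.5 TPM, moved the pooled difference to -0.42 when left out, and that for DOX/IgG1 against IgG1 to -0.37. Likewise the difference for DOX/anti-PD-1 against anti-PD-1 was -0.084 without DOX/anti-PD-1 replicate 3, the tumor at 60.1 TPM. Without DOX/IgG1 replicate 1 the pooled difference was -0.79 (limma adjusted p = 0.198). In bulk tissue, fewer cells that make Top2a and less Top2a RNA per cell cannot be told apart.

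Top2b (ENSMUSG00000017485, chromosome 14, 16365179 to 16435462, plus strand) encodes the topoisomerase II of resting cells as well. Its levels were 40.1, 125 and 143 TPM under IgG1, 134, 125 and 79.2 TPM under anti-PD-1, 160, 91.3 and 125 TPM under DOX/IgG1 and 98.4, 71.9 and 114 TPM under DOX/anti-PD-1. The ranges of all 4 groups overlapped, and IgG1 replicate 1 was the lowest tumor. The pooled doxorubicin difference was 0.10 (95% interval -0.53 to 0.73, limma adjusted p = 0.928), and it turned to -0.020 with median-of-ratios scaling and to -0.19 without IgG1 replicate 1. Top2b overlaps Rarb, which lies on the opposite strand, and how the strand was used in quantification is not given in the sources used here.

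The start regions of both topoisomerase genes are shown because Top2a varied with the genes of cell division (described further on) and Top2b is its paralog. RefSeq (GRCm38.p6) gave an entry for 8 of the 9 genes, from 250 bases before to 50 after the start, and Abcc1 had none. The Top2a window was chr11:99024140-99024439 (minus strand) and the Top2b window chr14:16364956-16365255 (plus strand). Capitals mark matches, on either strand, to the box CCAAT (read as ATTGG on the other strand), the box GGGCGG (read on the other strand as CCGCCC) or the core TGACNNNGC, and no match overlaps another in these windows.
Top2a: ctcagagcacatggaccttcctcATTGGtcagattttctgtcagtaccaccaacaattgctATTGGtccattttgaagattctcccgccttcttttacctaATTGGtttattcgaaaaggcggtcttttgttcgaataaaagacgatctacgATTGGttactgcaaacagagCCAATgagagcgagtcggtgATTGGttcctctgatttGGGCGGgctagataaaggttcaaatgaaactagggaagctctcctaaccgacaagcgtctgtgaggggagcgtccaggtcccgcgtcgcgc
Top2b: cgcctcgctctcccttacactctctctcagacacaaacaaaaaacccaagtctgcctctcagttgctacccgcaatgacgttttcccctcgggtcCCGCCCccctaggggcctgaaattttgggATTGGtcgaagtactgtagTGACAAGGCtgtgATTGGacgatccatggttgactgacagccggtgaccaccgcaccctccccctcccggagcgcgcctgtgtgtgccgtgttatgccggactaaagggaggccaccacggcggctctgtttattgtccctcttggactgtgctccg
Top2a held 6 CCAAT matches, 1 on the plus strand of the window and 5 on the other, and 1 GGGCGG match. The first CCAAT match begins 227 bases before the start and the last 58 bases before it. Top2b held 2 CCAAT matches, 1 GGGCGG match and 1 TGACNNNGC match. Of all 32851 promoters in the table, 37.4% held CCAAT, 35.7% GGGCGG and 12.4% TGACNNNGC, while 6 or more CCAAT matches stood in 26 promoters (0.0791%). Among 18 entries for 17 of the 20 proliferation genes described further on, 16 (88.9%) held CCAAT. A match is a string of letters in a window and not evidence of a bound factor.

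Abcc1 (ENSMUSG00000023088, chromosome 16, 14361558 to 14475737, plus strand), the pump MRP1, had the smallest unadjusted p of the 9 genes in the pooled doxorubicin comparison. It stood at 15.2, 17.3 and 13.4 TPM under IgG1 and at 46.9, 23.9 and 29.1 TPM under DOX/IgG1. In anti-PD-1 tumors it stood at 13.8, 17.6 and 22.6 TPM, and in DOX/anti-PD-1 tumors at 20.4, 27.9 and 20.8 TPM. Every DOX/IgG1 tumor exceeded every IgG1 tumor, and with anti-PD-1 the groups overlapped through anti-PD-1 replicate 3. From lowest to highest mean, the groups were IgG1 (15.3 ± 1.93 TPM, SD, n = 3), anti-PD-1 (18.0 ± 4.44), DOX/anti-PD-1 (23.0 ± 4.21) and DOX/IgG1 (33.3 ± 12.1), again with overlap between neighbors. The log2 fold change was 1.02 (standard error 0.32, limma adjusted p = 0.514) for DOX/IgG1 against IgG1 and 0.35 (standard error 0.29, limma adjusted p = 0.751) for DOX/anti-PD-1 against anti-PD-1. The pooled difference was 0.69, with a 95% interval of 0.21 to 1.17 and a limma adjusted p of 0.257, and the exact permutation test gave p = 0.015, not adjusted for the 9 genes. It was 0.57 with median-of-ratios scaling. The highest level was that of DOX/IgG1 replicate 1, without which the pooled difference was 0.53 (limma adjusted p = 0.237) and that for DOX/IgG1 against IgG1 was 0.75 (limma adjusted p = 0.346).

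Abcb1a (ENSMUSG00000040584, chromosome 5, 8660077 to 8748575, plus strand) and Abcb1b (ENSMUSG00000028970, chromosome 5, 8798147 to 8866315, plus strand) lie 49571 bases apart and encode the P-glycoproteins of the mouse. Abcb1a was listed at 3.26, 3.36 and 8.39 TPM under IgG1, 3.97, 2.75 and 2.70 TPM under anti-PD-1, 0, 17.7 and 11.1 TPM under DOX/IgG1 and 2.09, 6.74 and 11.4 TPM under DOX/anti-PD-1. The 3 highest tumors had all received doxorubicin, but so had the 2 lowest, and no groups separated. The pooled difference was 0.41 (95% interval -0.87 to 1.69, limma adjusted p = 0.823). With the 0 of DOX/IgG1 replicate 1 in the fit, it was 0.016 on log2(TPM + 0.1), and without that tumor the difference in log2(TPM + 1) was 1.02 (limma adjusted p = 0.220). Abcb1b ranged from 2.62 to 7.40 TPM over all tumors, both ends within DOX/IgG1, with a pooled difference of 0.18 (95% interval -0.46 to 0.81). With 1 tumor left out, the difference of Abcb1b lay between 0.020 and 0.29. In GENCODE vM21 transcripts, 12.5% of the distinct 75-base windows of Abcb1a and 8.13% of those of Abcb1b also stood in transcripts of other genes, namely each other and Abcb4, so reads can be split between them and their separate levels are uncertain. Summed, they gave a pooled difference of 0.43 (95% interval -0.41 to 1.28, limma adjusted p = 0.701).

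Abcg2 (ENSMUSG00000029802, chromosome 6, 58584523 to 58695676, plus strand), the breast cancer resistance protein, stood at 22.9, 27.1 and 39.1 TPM under IgG1 and 16.8, 47.6 and 37.1 TPM under anti-PD-1. With doxorubicin it stood at 29.7, 45.1 and 36.7 TPM under DOX/IgG1 and 13.8, 115 and 44.6 TPM under DOX/anti-PD-1. The last group held both the lowest and the highest of the 12 tumors. The pooled doxorubicin difference was 0.37 (95% interval -0.47 to 1.21, limma adjusted p = 0.745), and without DOX/anti-PD-1 replicate 2, the tumor at 115 TPM, it was 0.048. Leaving out DOX/anti-PD-1 replicate 1, the tumor at 13.8 TPM, moved it to 0.71 (limma adjusted p = 0.367).

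**Figure D2:**
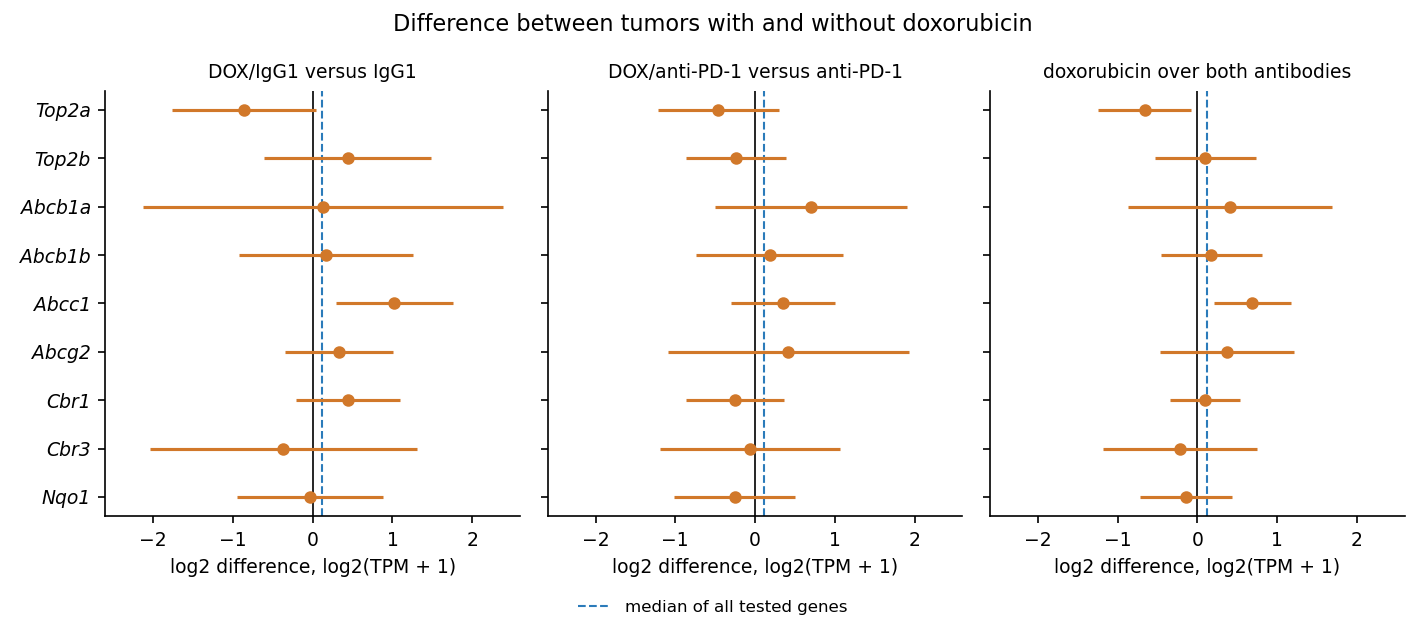
Log2 difference of log2(TPM + 1) (horizontal axes) for the 9 genes in the 3 doxorubicin comparisons, with points for estimates, bars for 95% intervals from limma and a dashed line for the median of all tested genes. In the pooled comparison the intervals of Top2a (-1.25 to -0.07) and Abcc1 (0.21 to 1.17) leave out 0, and the other 7 span it.

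Cbr1 (ENSMUSG00000051483, chromosome 16, 93605853 to 93610505, plus strand) encodes the main carbonyl reductase acting on doxorubicin. Its levels were 22.0, 23.4 and 19.9 TPM under IgG1, 22.9, 25.4 and 35.9 TPM under anti-PD-1, 22.4, 38.0 and 30.9 TPM under DOX/IgG1 and 21.6, 21.2 and 26.6 TPM under DOX/anti-PD-1. Doxorubicin groups overlapped with their controls, and the 3 highest tumors came from the anti-PD-1 and DOX/IgG1 groups. The log2 fold change with doxorubicin was 0.44 (standard error 0.29) for DOX/IgG1 against IgG1 and -0.25 (standard error 0.27) for DOX/anti-PD-1 against anti-PD-1. The interaction, the test of the difference between these values, was -0.69 (95% interval -1.51 to 0.13, limma adjusted p = 0.993). Over both antibodies the difference was 0.09 (95% interval -0.34 to 0.53), and it was -0.024 with median-of-ratios scaling. For the same interaction, Abcc1 gave -0.67 (95% interval -1.59 to 0.25) and Top2a 0.40 (95% interval -0.81 to 1.61), the last being -0.097 without DOX/IgG1 replicate 2. By this test 0 of 9 genes passed, against 0.00679% of 14735 genes, and 0 of 9 had an unadjusted p below 0.05, against 4.71%, and 1 of 9 without DOX/IgG1 replicate 1, against 941 of 14626 genes.

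Cbr3 (ENSMUSG00000022947, chromosome 16, 93683215 to 93690990, plus strand), a paralog of Cbr1 on the same strand 72709 bases away, was the lowest of the 9 genes. It was listed at 3.50, 3.54 and 3.67 TPM under IgG1, 4.29, 4.40 and 1.48 TPM under anti-PD-1, 0, 5.14 and 6.21 TPM under DOX/IgG1 and 1.64, 4.92 and 2.97 TPM under DOX/anti-PD-1. The IgG1 tumors were nearly alike and the other groups spread to either side of them. The pooled doxorubicin difference was -0.22 (95% interval -1.18 to 0.75, limma adjusted p = 0.887) and 0.21 without DOX/IgG1 replicate 1, where Cbr3 was listed at 0.

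Nqo1 (ENSMUSG00000003849, chromosome 8, 107388225 to 107403206, minus strand), a quinone reductase controlled by the transcription factor NRF2, stood at 25.9, 34.8 and 27.9 TPM under IgG1 and 27.6, 55.1 and 57.2 TPM under anti-PD-1. With doxorubicin it stood at 54.4, 23.9 and 17.7 TPM under DOX/IgG1 and 27.9, 46.9 and 38.5 TPM under DOX/anti-PD-1. The groups overlapped in each comparison, and DOX/IgG1 tumors held both the lowest level and one of the highest. The pooled doxorubicin difference was -0.15 (95% interval -0.72 to 0.43, limma adjusted p = 0.868). Without DOX/IgG1 replicate 1, the tumor at 54.4 TPM, it was -0.36 (limma adjusted p = 0.491).

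Anti-PD-1 was compared with IgG1 without doxorubicin, with it, and over both chemotherapy arms. Among these comparisons, Nqo1 had the smallest unadjusted p of the 9 genes without doxorubicin and over both arms. Its log2 fold change was 0.58 (standard error 0.32, limma adjusted p = 0.996) for anti-PD-1 against IgG1. Over both arms it was 0.47 (95% interval -0.10 to 1.04, limma adjusted p = 0.999, exact permutation p = 0.145). For anti-PD-1 against IgG1, 0 of 9 genes passed both limits, against 0% of 13692 genes, 0 of 9 had an unadjusted p below 0.05, against 4.6%, and for 0 of 9 the groups did not overlap, against 9.88%. For DOX/anti-PD-1 against DOX/IgG1 these counts were 0 of 9 against 0% of 13946 genes, 0 of 9 against 4.7%, and 0 of 9 against 10.2%. Over both arms, 0 of 9 passed against 0% of 14735 genes, and 0 of 9 had an unadjusted p below 0.05 against 4.69%. The unadjusted count without DOX/IgG1 replicate 1 was 1 of 9 for DOX/anti-PD-1 against DOX/IgG1 (1030 of 13699 genes) and 1 of 9 over both arms (914 of 14626 genes). Over both arms the log2 differences of the 9 genes lay between -0.16 (Abcb1a) and 0.47 (Nqo1), with a median of 0.01. Without DOX/IgG1 replicate 1 these ends were -0.77 (Abcb1a, limma adjusted p = 0.822) and 0.68 (Nqo1, limma adjusted p = 0.678).

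Of 6 relations examined across the 12 tumors, the strongest was that of Top2a with the mean log2(TPM + 1) of 20 proliferation genes, a list of mitotic kinases, cyclins and spindle proteins that does not hold Top2a. Pearson's r was 0.904 (permutation p = 0.00028, adjusted over the 6 relations 0.00168) and Spearman's rho 0.685 (permutation p = 0.0171, adjusted 0.103). Without DOX/IgG1 replicates 2 and 3, the tumors farthest from the median of the list, r was 0.775 (permutation p = 0.0136, adjusted 0.0816). The adjusted value then no longer passed 0.05, so the adjusted call rests on those tumors. With every tumor centered on its group mean, r was 0.894 (permutation p = 0.00014, adjusted 0.00084). The list mean was lowest in DOX/IgG1 replicate 2 (3.24), DOX/IgG1 replicate 3 (3.88) and DOX/anti-PD-1 replicate 3 (3.93), the same 3 tumors in which Top2a was lowest.

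**Figure D3:**
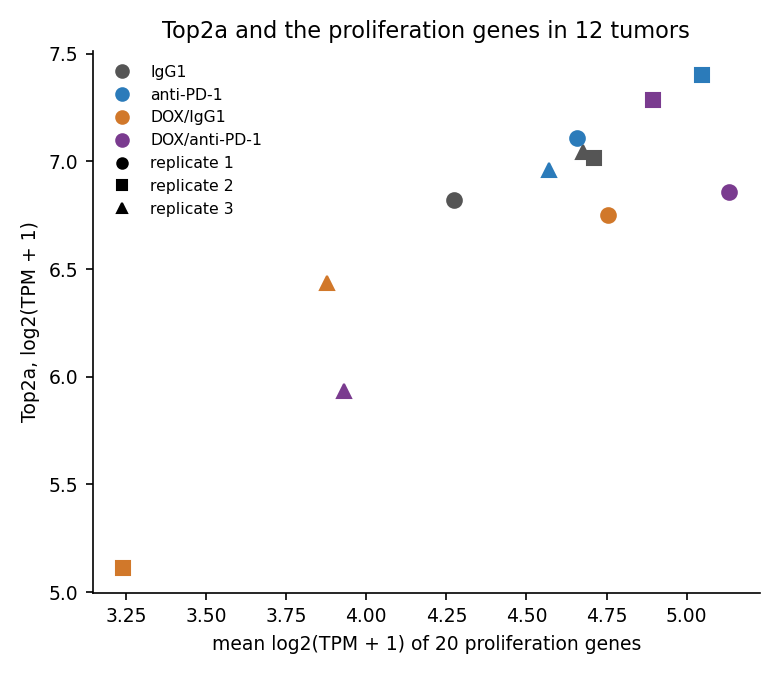
Top2a (vertical axis) against the mean of 20 proliferation genes (horizontal axis), both as log2(TPM + 1), with 1 point per tumor, colors for groups and shapes for replicates. The DOX/IgG1 tumor at a list mean of 3.24 was lowest on both axes, and r over the 12 tumors was 0.904.

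The other 5 relations did not pass. Nqo1 and the mean of 16 NRF2 genes gave r = -0.556 (permutation p = 0.0627, adjusted 0.188) and rho = -0.469 (permutation p = 0.128, adjusted 0.384), and r = -0.459 without 2 tumors. Abcb1a and Abcb1b gave r = 0.480 (permutation p = 0.116, adjusted 0.232) and rho = 0.308 (permutation p = 0.331, adjusted 0.662), and r was 0.0154 without DOX/IgG1 replicate 2 and DOX/anti-PD-1 replicate 3, so the value over all tumors rests on those tumors. Abcb1a, also made in the endothelium of the brain, gave with the mean of 8 endothelial markers r = 0.238 (permutation p = 0.462, adjusted 0.554) and rho = 0.0210 (permutation p = 0.957, adjusted 0.957). Abcg2 with the same markers gave r = 0.30 (permutation p = 0.351, adjusted 0.527) and rho = 0.189 (permutation p = 0.556, adjusted 0.691). Without 2 tumors the sign of both turned, to -0.132 and -0.312. Cbr1 and Cbr3 gave r = 0.156 (permutation p = 0.641, adjusted 0.641) and rho = 0.182 (permutation p = 0.576, adjusted 0.691), with r = 0.493 (permutation p = 0.151) without 2 tumors and r = 0.0202 without DOX/IgG1 replicate 1 alone.

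As a description with no test, the genes most like each of the 9 were sought over the 12 tumors among 11301 genes with a mean of at least 5 TPM. Top2a was most like Ccnf (r = 0.957), Cdca8 (r = 0.938) and Hmmr (r = 0.938), genes of the cell division cycle. Top2b was most like Atrx (r = 0.956), Nol8 (r = 0.956) and BC005561 (r = 0.954). Abcb1a was most like Mndal (r = 0.968), Ednra (r = 0.939) and Slc7a2 (r = 0.925), and Cbr3 was most like Rbms1 (r = 0.922), Ednra (r = 0.916) and 9430076C15Rik (r = 0.914). Abcb1a and Cbr3 share the 0 in DOX/IgG1 replicate 1, which enters both sets. For Abcc1 the nearest were Mcam (r = 0.916), Sec22c (r = 0.909) and Trak1 (r = 0.896), and for Abcg2 Metap1 (r = 0.918), Efna5 (r = 0.887) and Tbrg4 (r = 0.885). Abcb1b was nearest to Smarcal1 (r = 0.893), Tchp (r = 0.886) and Mfsd10 (r = 0.856). Cbr1 was nearest to Atp6v1d (r = 0.905), Mr1 (r = 0.853) and Gm7173 (r = 0.845), and Nqo1 to Adamts18 (r = 0.864), Poc1a (r = 0.864) and Cdk4 (r = 0.839).

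Genes of related function are given beside the 9 from the pooled doxorubicin comparison, in which limma called 0 of them. At an unadjusted p below 0.05, as 12% of all 14735 genes were, stood 2 proliferation genes (lower), 1 topoisomerase (higher), 4 exporters (in both directions), 0 uptake carriers, 3 reductases (higher) and 4 NRF2 genes (higher). Of all tested genes 63.3% were higher in this comparison. In the proliferation list 19 of 20 genes were lower with doxorubicin, with a median of -0.31 beside -0.66 for Top2a, and the count was 19 of 20 under both other scalings. The 3 tumors with the lowest list means (3.24, 3.88 and 3.93) had received doxorubicin, but so had the tumor with the highest (5.13). For DOX/IgG1 against IgG1 all 20 were lower (median -0.58), as was Top2a, with 0 called and 2 at an unadjusted p below 0.05 (1073 of all 13874 genes). Yet the list mean of DOX/IgG1 replicate 1 (4.75) exceeded those of the IgG1 tumors (4.27, 4.71 and 4.68), and only replicates 2 and 3 (3.24 and 3.88) lay below them. This holds for the mean of log2 values. By summed TPM, DOX/IgG1 replicate 1 (634 TPM) lay below IgG1 replicates 2 and 3 (686 and 651 TPM) and above IgG1 replicate 1 (450 TPM). For DOX/anti-PD-1 against anti-PD-1, 12 were lower and 8 higher (median -0.16). For DOX/IgG1 against IgG1 without DOX/IgG1 replicate 1 the median was -0.96, 9 genes had an unadjusted p below 0.05 and Birc5 was called lower, where 1789 of all 13664 genes had such a p and 113 were called. With anti-PD-1, 14 of 20 were higher without doxorubicin (median 0.30), 19 of 20 with it (median 0.63, or 1.02 without DOX/IgG1 replicate 1) and all 20 over both arms (median 0.48), where 45.6% of all genes were higher. In each of these comparisons 0 of the 20 were called and 1 had an unadjusted p below 0.05. Without DOX/IgG1 replicate 1 the last count was 7 for DOX/anti-PD-1 against DOX/IgG1, against 1030 of all 13699 genes. Mki67 had a pooled doxorubicin difference of -0.84 (95% interval -1.60 to -0.09) and Ube2c one of -0.90 (95% interval -1.74 to -0.06), while Nusap1 gave -0.48. The mean of Ube2c was 5.79 TPM under IgG1 and 4.78 under DOX/IgG1, and 10.4 under anti-PD-1 and 2.45 under DOX/anti-PD-1. Of 6 other topoisomerases and enzymes that process trapped DNA ends, 4 were higher and 2 lower, with a median of 0.15. With median-of-ratios scaling 3 were higher and 3 lower, and the median was 0.039. Among them Top3b, a type I enzyme, stood at 40.2, 36.7 and 47.8 TPM under IgG1, 33.2, 39.4 and 37.5 TPM under anti-PD-1, 74.2, 65.1 and 59.3 TPM under DOX/IgG1 and 54.7, 56.5 and 64.6 TPM under DOX/anti-PD-1. All 6 tumors with doxorubicin lay above the 6 without it, with a pooled difference of 0.66 (95% interval 0.36 to 0.96) and a limma adjusted p of 0.154. Within 1 antibody, with 3 tumors against 3, the groups did not overlap for 14% (IgG1) and 14.9% (anti-PD-1) of all genes. The share of all genes for which the 6 tumors with doxorubicin lay apart from the 6 without it was not computed. Top3b was singled out after its values were seen, so how unusual it is cannot be judged. Top1 gave -0.17 and Top3a 0.28.

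Of 12 other drug exporters, 10 were tested, 7 were higher and 3 lower with doxorubicin, and the median was 0.25. With median-of-ratios scaling 7 were higher and 3 lower, the median was 0.13, and 2 rather than 4 had an unadjusted p below 0.05. Abcc3, a relative of Abcc1, gave 0.73 (95% interval 0.05 to 1.42, limma adjusted p = 0.380). It was called without DOX/IgG1 replicate 1, a fit that also called many more of all tested genes, as given in the last section. Abca3 gave -0.13, and Abcc6 was listed at 0 in every tumor. Only 2 of 6 organic cation uptake carriers were tested, Slc22a4 with -0.42 and Slc22a5 with 0.12, and Slc22a16 was listed at 0 in every tumor. Of 19 other reductases, 16 were tested, 12 were higher and 4 lower, and the median was 0.21. With median-of-ratios scaling 10 were higher and 6 lower, and the median was 0.084. The count at an unadjusted p below 0.05 was then 1 rather than 3, against 1707 of all 14698 genes. Akr1b3 gave 0.85 (95% interval 0.25 to 1.44, limma adjusted p = 0.259), Cbr2 0.63, Cyb5r3 0.46 and Akr1a1 0.23. The mean of Cbr2 was 20.2 TPM under IgG1 and 51.6 under DOX/IgG1, but 24.8 under anti-PD-1 and 23.8 under DOX/anti-PD-1. The NRF2 list holds glutathione and detoxification genes, and also the gene of NRF2 itself (Nfe2l2) and its regulator Keap1. In this list 13 of 16 were higher, with a median of 0.34 and with 11 of 16 under median-of-ratios scaling. Gclc gave 0.77 (95% interval 0.29 to 1.24, limma adjusted p = 0.225), Gsr 0.73, Ephx1 0.71 and Me1 0.07, beside -0.15 for Nqo1.

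**Figure D4:**
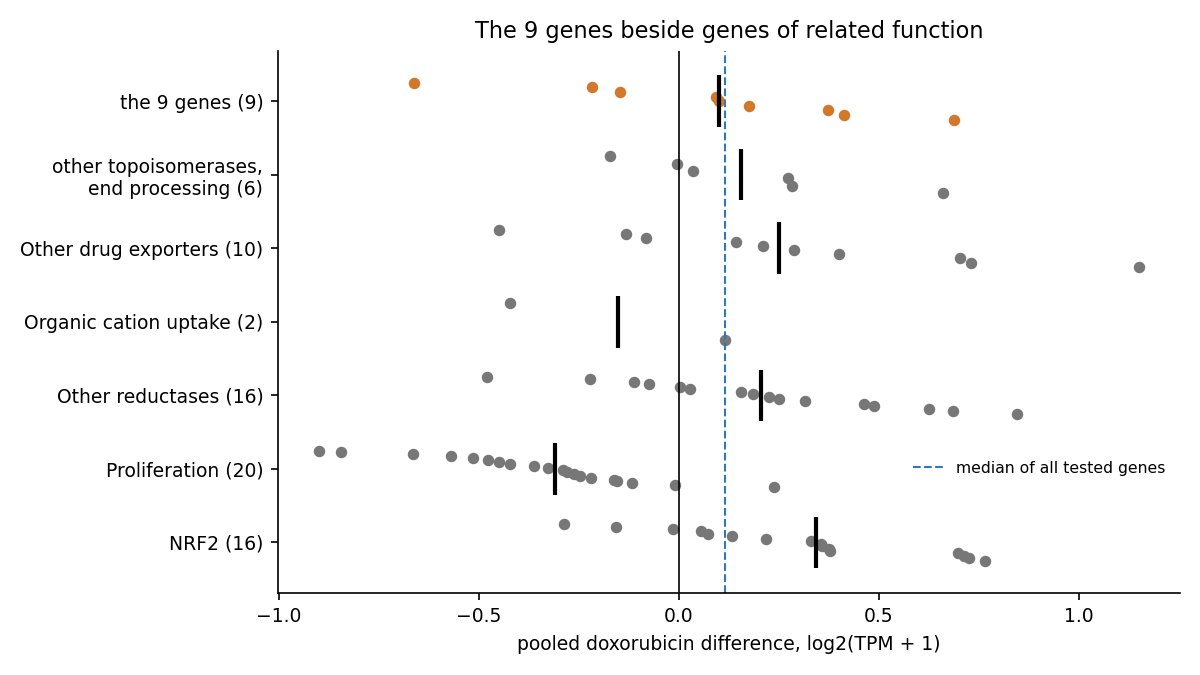
Pooled doxorubicin difference in log2(TPM + 1) (horizontal axis) of the 9 genes and of 6 lists of related genes, with 1 point per tested gene, the number tested in parentheses, a black bar for the median and a dashed line for the median of all tested genes. The median of the proliferation list was -0.31 and that of the 9 genes 0.10.

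Markers of other cell types also differed between the tumors. The 6 basal epithelial markers, all above 0 in every tumor and led by Acta2, summed to 392, 165 and 361 TPM under IgG1, 170.5, 273 and 262 TPM under anti-PD-1, 206, 583 and 875 TPM under DOX/IgG1 and 339.8, 411 and 521 TPM under DOX/anti-PD-1. Acta2 alone held 346 and 507 TPM of the sums of DOX/IgG1 replicates 2 and 3. The authors stained its product, alpha-smooth muscle actin, as a stromal marker, so these sums cannot be read as basal epithelium alone. The 3 tumors with the highest sums were those in which Abcb1a was highest, and they also held the highest T cell sums (44.0, 38.4 and 32.8 TPM), the highest NK cell sums (18.3, 14.9 and 9.15 TPM) and the lowest Top2a. All 6 were higher in the pooled doxorubicin comparison (5 of 6 with median-of-ratios scaling), with a median of 0.47, 0 called by limma and 0 at an unadjusted p below 0.05. By antibody, the median was 0.29 for DOX/IgG1 against IgG1 (0 of 6 at an unadjusted p below 0.05, against 7.73% of all genes) and 0.67 for DOX/anti-PD-1 against anti-PD-1 (3 of 6, against 8.63%), with 0 called in each. Leaving out DOX/IgG1 replicate 1 moved the median for DOX/IgG1 against IgG1 to 1.19 (3 of 6), again with 0 called, so the order of these medians turned. In the pooled doxorubicin comparison without DOX/IgG1 replicate 1, 3 of these markers (Acta2, Myh11 and Oxtr) were called higher, and Krt5, Krt14 and Trp63 were not. That fit also called many more of all tested genes than the fit with this tumor, as given in the last section, so these calls are not particular to basal markers. The 7 adipocyte markers, led by Cfd, summed to 99.3, 330.3 and 244 TPM under IgG1, 149, 101 and 171 TPM under anti-PD-1, 181, 866 and 137 TPM under DOX/IgG1 and 830.2, 297 and 237 TPM under DOX/anti-PD-1. The highest sum stood in the tumor with the lowest Top2a, DOX/IgG1 replicate 2, but the next, DOX/anti-PD-1 replicate 1, had 115 TPM of Top2a and the highest mean of the proliferation list (5.13). All 7 were higher with doxorubicin, with a median of 0.97, 0 called by limma and 2 at an unadjusted p below 0.05. For these, the median was 0.40 for DOX/IgG1 against IgG1 (0 of 7 at an unadjusted p below 0.05, 1 lower) and 1.39 for DOX/anti-PD-1 against anti-PD-1 (6 of 7, against 8.63% of all genes), again with 0 called. The adipocyte median for DOX/IgG1 against IgG1 was 0.79 without DOX/IgG1 replicate 1, still with 0 of 7 at an unadjusted p below 0.05. The sum of 5 salivary-type secretory markers, led by Amy1, was 5.24, 18.2 and 9.25 TPM under IgG1 and 60.1, 78.3 and 124 TPM under DOX/IgG1, the group with the highest mean of Abcc1. It was 20.6, 4.85 and 20.8 TPM under anti-PD-1 and 17.8, 14.6 and 21.8 TPM under DOX/anti-PD-1. The defining marker Bpifa2 was listed at 0 outside the DOX/IgG1 group, and no test is read from it, since without DOX/IgG1 replicate 1 it did not pass the low-value filter. The part of these cell types in the values of Top2a, Abcc1 and Abcb1a was not tested.

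In the pooled doxorubicin comparison all 6 macrophage markers, all 4 T cell markers tested (median 0.82) and all 3 NK cell markers (median 0.66) were higher, and 5 of 6 luminal markers were lower, with 0 called by limma and, at an unadjusted p below 0.05, 1 T cell marker (higher) and 2 luminal markers (1 higher, 1 lower). The markers Cd3g (T cell), Krt19 (luminal), Dcn and Lum (fibroblast) and Amy1 (salivary-type) were called higher without DOX/IgG1 replicate 1. They were singled out of their lists after their values were seen. That fit also called many more of all tested genes, as given in the last section, so these calls do not stand for their cell types. With median-of-ratios scaling 5 of 6 macrophage and 3 of 4 T cell markers were higher. Over the 12 tumors, luminal markers summed to between 2040 and 3675 TPM, endothelial markers (led by Pecam1) to between 81.5 and 158 TPM, fibroblast markers (led by Col1a1) to between 459 and 1622 TPM and macrophage markers (led by Lyz2) to between 251 and 480 TPM. T cell markers reached 44.0 TPM at most, NK cell markers 18.3 TPM and B cell markers 2.22 TPM. Skeletal muscle markers, led by Acta1, ranged from 0 to 592 TPM.

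**Figure D5:**
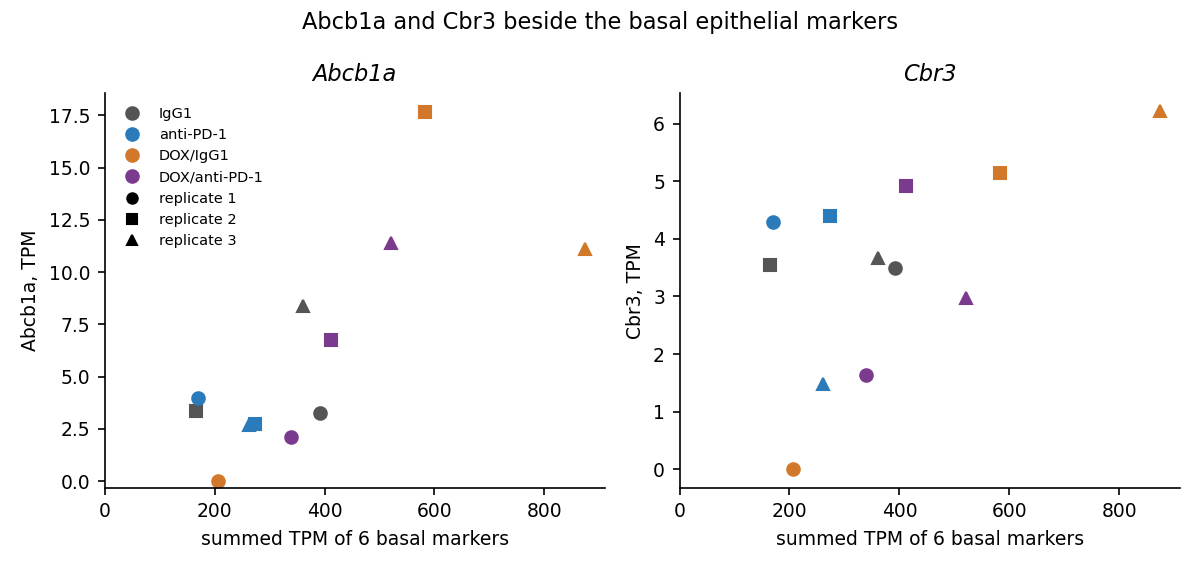
TPM of Abcb1a and Cbr3 (vertical axes) against the summed TPM of 6 basal epithelial markers (horizontal axes), with 1 point per tumor, colors for groups and shapes for replicates. DOX/IgG1 replicates 2 and 3, at 583 and 875 TPM of basal markers, had 17.7 and 11.1 TPM of Abcb1a, and DOX/IgG1 replicate 1 was listed at 0 for both genes. The sums are led by Acta2, whose product the authors stained as a stromal marker, and cannot be read as basal epithelium alone.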

How the data were processed

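Total RNA of 12 snap-frozen tumors was sequenced as single-end reads after preparation with a SMARTer stranded kit. After adapter removal (skewer), the authors mapped reads to mm10 (STAR), estimated gene levels (RSEM) and deposited log2(TPM + 1) for 21960 genes per tumor. Reversing the log2 step gave TPM that were multiples of 0.01 (within 0.001) for 100% of values. Count models were not used, since TPM hold no counts. Groups came from the sample labels. The members and the gene lists were chosen with earlier results of these data known.

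Genes at 1 TPM or more in 3 or more tumors of a comparison entered limma 3.58.1 (R 4.3.3; lmFit, then eBayes with trend), two-sided, with Benjamini-Hochberg adjustment over all genes tested. A fold change is a difference between group means of log2(TPM + 1), which understates the change of low genes. Single genes were compared by exact permutation tests, stratified for pooled differences, and relations by 100000 resamples. The fitting step was tested on simulated data. From each list of related genes the text names called genes, the 2 with the highest mean TPM and up to 2 with the largest pooled doxorubicin difference among those with a mean of at least 5 TPM; 1 gene that this rule takes is not reported here. The values of Top3b per tumor, Abcc6, Slc22a16 and the cell type markers singled out were chosen after their values were seen. Coordinates are from GENCODE vM21 (GRCm38) and promoters from RefSeq (GRCm38.p6).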

Additional observations from a re-analysis of the deposited data

How the results depend on the processing

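Under the alternatives tried (pseudocount, low-value filter, scaling, no trend, all 12 tumors in the fit, replicate block, no limit on fold change, 1 tumor left out), 0 of 9 members were called in any of the 7 comparisons. Of the 63 member differences, 30 changed sign in at least 1 alternative. For pooled doxorubicin this held for Top2b (-0.020 with median-of-ratios scaling, -0.19 to 0.22 with 1 tumor left out), Cbr1 (-0.024 and -0.020 to 0.21) and Cbr3 (-0.43 to 0.21 with 1 tumor left out, -0.69 on log2(TPM + 0.1)), whose causes were not tested, while Top2a lay between -0.82 and -0.42 (limma adjusted p 0.198 to 0.550) and Abcc1 between 0.53 and 0.80 (limma adjusted p 0.230 to 0.394). The limma adjusted p of Abcb1a lay between 0.220 and 0.998. The interaction of Top2a lay between -0.097 and 0.78 with 1 tumor left out. Without the 2 tumors farthest from the median, r was 0.775 for Top2a with the proliferation list, -0.132 for Abcb1a and -0.312 for Abcg2 with the endothelial markers.

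The count of all genes called moved more than that of the members. Between DOX/IgG1 and IgG1 tumors it was 5, and 13 without the trend, 113 without DOX/IgG1 replicate 1 and 2 without replicate 2 or 3 of that group. In the pooled doxorubicin comparison it was 3, and 14 with median-of-ratios scaling (3 higher and 11 lower, against 3 and 0), 12 with equal sums (4 and 8), 13 with a minimum of 5 TPM, 211 without DOX/IgG1 replicate 1 and 27 without DOX/anti-PD-1 replicate 2. The replicate numbers were not taken as a pairing, since no label ties them to a mouse, cage or day. The correlation of deviations between same-numbered tumors exceeded 0.1 in 4 of 18 pairs (-0.10 to 0.13). Tumors with different numbers were not compared in this way, so these values cannot decide whether the numbers are a pairing. With the replicate block, 2 genes were called between DOX/IgG1 and IgG1 tumors and 1 in the pooled doxorubicin comparison, and 0 of 9 members in each. TPM keep no depth, so what sequencing depth limits is unknown for genes as low as Abcb1a, Abcb1b and Cbr3.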
